A study of Homo sapiens with 8 samples.

Results

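The genes described here are 10 interferon-stimulated genes, IFI44L, IFI44, IFIT1, IFIT2, IFIT3, ISG15, MX1, OAS1, IFI6 and IFI27, in human neuroblastoma cells that carried an shRNA against TRPM7 or a control shRNA. The members were chosen by symbol: 17 of the 47322 probes on the array carry one of these names, and the 10 genes stand among 31426 symbols in all. That choice, like that of the gene lists below, was made with earlier results of these data known. SH-SY5Y and SH-EP2 are established sublines of 1 neuroblastoma line, SK-N-SH, the former neuroblastic and the latter epithelial-like and adherent. Cells of each line were transduced with a lentivirus that carries either the TRPM7 shRNA or a nonfunctional control shRNA, selected with puromycin, and profiled with Illumina HumanHT-12 v4 bead chips, 2 arrays for each of the 4 groups. The 4 groups are SH-SY5Y control, SH-SY5Y TRPM7 shRNA, SH-EP2 control and SH-EP2 TRPM7 shRNA. Every group carries the lentiviral vector and an shRNA, and 1 TRPM7 shRNA was used on the arrays. The sources do not say whether the 2 replicates of a group were separate cultures, so the tests measure the spread between arrays, which may be technical.

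Interferon-stimulated genes are the output of the interferon system. Sensors of foreign RNA and DNA, such as RIG-I, MDA5 and IFI16, act through adaptors such as STING and switch on type I interferon genes. The secreted interferon binds the receptor made of IFNAR1 and IFNAR2. The kinases JAK1 and TYK2 then activate a transcription complex that includes STAT2 and IRF9. This complex binds the interferon-stimulated response element, a short DNA motif close to the start of its target genes. Tonic, low-level activity of the same complex also sets the resting level of these genes in cells that have met no virus, and double-stranded RNA, which an shRNA resembles in its stem, is among the known triggers of the sensors.

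The promoters of the members show the motif through which the complex acts. RefSeq windows on GRCh38.p14, reaching from 250 bases before to 50 bases after a transcription start, were found for 9 of the 10 members, and IFIT2 had none in the table used. The motif was searched as GAAANNGAAA on both strands, where N is any base, and matches may overlap. It stood in at least 1 window of 8 of these 9 genes, of 22 of 32 other interferon-stimulated genes with a window, and of 1195 of 27305 genes in all (4.38%). The exact letters were not in the OAS1 window. Of the 35116 windows of this length, 3.57% held the motif. The windows of 4 members are printed, 5′ to 3′ on the gene's strand, with matches in capitals: the pair of neighbouring genes that moved with the TRPM7 shRNA (IFI44L and IFI44), the member with the widest measured difference between the cell lines (ISG15), and the member that was detected on no array (IFI27).
IFI44L, chr1:78620198-78620497, plus strand: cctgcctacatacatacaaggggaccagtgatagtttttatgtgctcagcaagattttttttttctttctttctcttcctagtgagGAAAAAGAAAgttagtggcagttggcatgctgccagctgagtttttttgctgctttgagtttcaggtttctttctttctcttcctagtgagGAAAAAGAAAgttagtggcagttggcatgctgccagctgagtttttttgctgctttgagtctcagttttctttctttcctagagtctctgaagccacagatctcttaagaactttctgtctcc
IFI44, chr1:78649539-78649838, plus strand: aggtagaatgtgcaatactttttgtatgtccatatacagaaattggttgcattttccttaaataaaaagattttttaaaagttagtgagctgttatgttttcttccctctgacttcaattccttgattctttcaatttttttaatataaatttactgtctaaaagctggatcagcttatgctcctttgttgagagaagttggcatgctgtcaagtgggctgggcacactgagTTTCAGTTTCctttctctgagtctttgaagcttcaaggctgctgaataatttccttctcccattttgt
ISG15, chr1:1013247-1013546, plus strand: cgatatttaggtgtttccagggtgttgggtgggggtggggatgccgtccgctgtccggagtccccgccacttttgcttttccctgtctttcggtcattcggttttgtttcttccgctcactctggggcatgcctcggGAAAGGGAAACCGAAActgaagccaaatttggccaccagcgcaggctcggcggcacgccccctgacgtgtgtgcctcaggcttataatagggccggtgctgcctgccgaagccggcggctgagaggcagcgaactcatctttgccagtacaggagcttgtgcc
IFI27, chr14:94110486-94110785, plus strand: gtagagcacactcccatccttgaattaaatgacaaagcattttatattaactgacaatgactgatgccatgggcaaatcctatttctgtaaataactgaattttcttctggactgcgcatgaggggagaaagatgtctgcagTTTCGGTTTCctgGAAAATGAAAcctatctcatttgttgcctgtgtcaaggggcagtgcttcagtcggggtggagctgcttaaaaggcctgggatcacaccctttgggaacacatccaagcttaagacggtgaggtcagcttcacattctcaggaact
The IFI44L window holds 2 copies of the motif as written, between bases 87 and 187 of the window. The IFI44 window holds 1 copy on the reverse strand, at bases 233 to 242. In ISG15 the 2 matches overlap and span bases 138 to 153, and IFI27 has 1 match on each strand. A match is a run of letters and not a measured binding site.

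Signals are given on the log2 scale after correction with the RMA background model and quantile normalization over the 8 arrays, with the array's own detection p-value, below 0.05, as the sign that a probe stood above background. Between 40.8% and 44.2% of the probes were detected on an array. The TRPM7 probe was detected on no array of any group, so that the knockdown could not be checked here. Of 8 noradrenergic marker genes, 7 were lower in the SH-EP2 control cells (median log2 difference -6.35), and their summed normalized signal was 16009 to 17527 on SH-SY5Y control arrays and 188 to 204 on SH-EP2 control arrays. TH, a defining marker of this class, was detected on no array, and PHOX2A, DBH and CHGA, among others, on no SH-EP2 array. Of 8 mesenchymal markers, 7 were higher in SH-EP2 and 1 lower, and FN1 and PRRX1 were detected on no SH-SY5Y array. Differences between the lines, in these markers as in the genes below, include all that separates the sublines, and of the media the sample labels give 1 for all groups whereas the study's methods give different ones for the lines.

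The 10 genes separated the arrays by cell line. In SH-EP2 cells 9 of the 10 were detected on every array, all but IFI27, whereas 5 were detected on each SH-SY5Y control array and 6 on each SH-SY5Y TRPM7 shRNA array. The mean log2 signal of these 9 genes was 7.82 and 7.89 on the SH-EP2 control arrays, 8.18 and 8.20 on the SH-EP2 TRPM7 shRNA arrays, 4.24 and 4.25 on the SH-SY5Y control arrays and 4.14 and 4.33 on the SH-SY5Y TRPM7 shRNA arrays. The lines did not overlap in this mean, and the control and TRPM7 shRNA arrays of SH-SY5Y did.

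**Figure D1:**
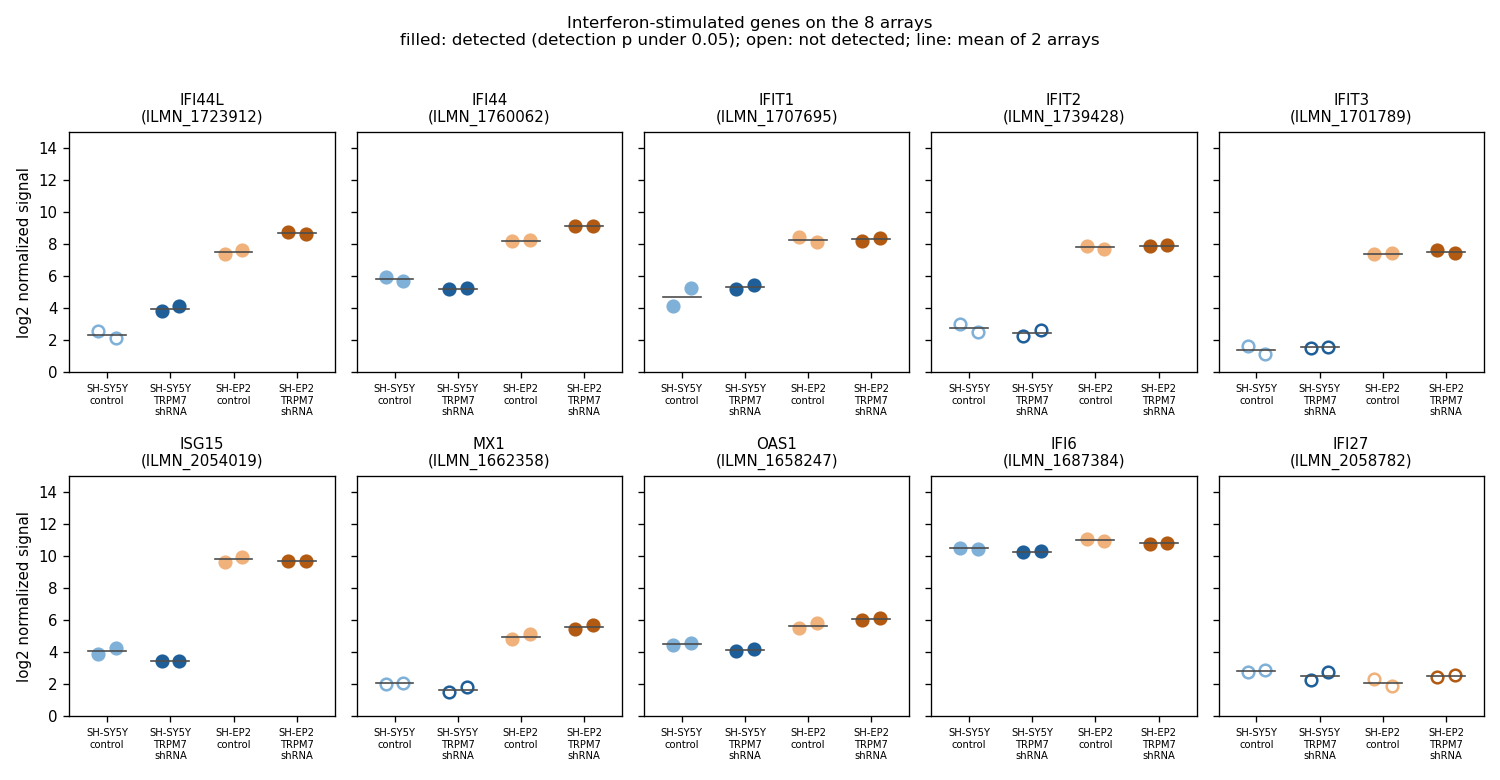
Log2 normalized signal (vertical axis) of the brightest probe of each of the 10 interferon-stimulated genes on the 8 arrays, by group; filled points are detected arrays, open points undetected ones, and lines are group means of 2 arrays. IFIT2, IFIT3 and MX1 are open in all SH-SY5Y arrays, IFI27 is open everywhere, and IFI44L turns from open to filled with the TRPM7 shRNA in SH-SY5Y.

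The IFIT genes encode proteins that bind viral RNA and block its translation. IFIT2 stood at 7.88 and 7.72 in SH-EP2 control cells and was undetected on all 4 SH-SY5Y arrays. IFIT3 stood at 7.41 and 7.42 in SH-EP2 control cells and was likewise undetected in SH-SY5Y, with its other probes, ILMN_2239754 and ILMN_1664543, in the same order. IFIT1 was detected in all groups by probe ILMN_1707695, at 8.47 and 8.11 in SH-EP2 control cells and at 4.16 and 5.28 in SH-SY5Y control cells. Its other probe, ILMN_1699331, was detected on no array and gives no information on the transcript it targets.

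ISG15, a ubiquitin-like protein that is joined to other proteins after interferon, stood at 9.66 and 9.97 in SH-EP2 control cells and at 3.92 and 4.24 in SH-SY5Y control cells. MX1, a dynamin-like GTPase that traps viral particles, stood at 4.81 and 5.15 in SH-EP2 control cells and was undetected in SH-SY5Y. OAS1, which makes the second messenger that activates RNase L, stood at 5.50 and 5.80 in SH-EP2 control cells and at 4.43 and 4.60 in SH-SY5Y control cells. A further probe of OAS1 was detected on no array, and the other 2 OAS1 probes were also higher in SH-EP2 control cells. IFI6, a mitochondrial protein that restrains cell death, was the member nearest to equal in the lines, at 11.09 and 10.92 in SH-EP2 control cells and 10.50 and 10.47 in SH-SY5Y control cells. IFI27, often among the most induced genes in blood after interferon, had a detection p between 0.0935 and 0.631 on the 8 arrays.

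By the fit over all probes (limma, Benjamini-Hochberg adjustment), 9 of the 10 members were higher in SH-EP2 control than in SH-SY5Y control cells and none was lower, where 30.1% of all genes differed, 14.2% upwards and 15.9% downwards, and 25.3% of the genes detected on at least 2 arrays were higher. The median log2 difference of the 10 members was 3.24, against -0.02 over all genes. ISG15 was 53.2-fold higher (log2 5.73, SE 0.18, adjusted p = 1.03e-15), IFIT1 11.9-fold (log2 3.57, SE 0.26) and IFI44 5.29-fold (log2 2.40, SE 0.15). OAS1 was 2.21-fold higher (log2 1.14, SE 0.26, adjusted p = 0.00194) and IFI6 1.44-fold (log2 0.52, SE 0.08, adjusted p = 4.09e-05). For the members that were undetected on both SH-SY5Y control arrays the fold is a bound, taken against the lowest signal among detected probes of each dim array or the dim probe's own signal, whichever was higher. It was at least 25.0-fold for IFIT2, at least 20.3-fold for IFI44L, at least 19.1-fold for IFIT3 and at least 3.53-fold for MX1. IFI27 was undetected in both groups and has no fold. The sizes of these differences, bounds included, depended on the background correction while the calls did not, except that IFI6 was lost without the intensity trend. Without background correction the log2 difference was 2.96 for ISG15, 1.60 for IFIT1, 1.28 for IFI44, 1.41 for IFI44L, 1.54 for IFIT2, 1.55 for IFIT3, 0.43 for MX1 and 0.27 for OAS1.

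IFI44L and IFI44 encode related cytoplasmic proteins induced by interferon and lie next to each other on chromosome 1, and in SH-EP2 cells both were higher with the TRPM7 shRNA. IFI44L stood at 7.37 and 7.63 on the control arrays and at 8.77 and 8.61 on the TRPM7 shRNA arrays. IFI44 stood at 8.22 and 8.24 on the control arrays and at 9.16 and 9.11 on the TRPM7 shRNA arrays. In both genes the groups did not overlap, and in the deposited signals they did not overlap either (285 and 293 against 551 and 503 for IFI44L, and 422 and 393 against 688 and 669 for IFI44). IFI44L rose 2.28-fold (log2 1.19, SE 0.24, adjusted p = 0.00557) and IFI44 1.87-fold (log2 0.91, SE 0.15, adjusted p = 0.00128). These were the 2 members called in SH-EP2, both upwards, where 3.67% of all genes passed, 1.82% higher and 1.85% lower.

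The other 8 members did not pass in SH-EP2. ISG15 stood at 9.66 and 9.97 against 9.67 and 9.68 with the TRPM7 shRNA (log2 -0.14, SE 0.18, adjusted p = 0.847). IFIT1 had a log2 fold change of 0.01 (SE 0.26), IFIT2 of 0.12 (SE 0.27) and IFIT3 of 0.11 (SE 0.32). For MX1 it was 0.62 (SE 0.43, adjusted p = 0.635) and for OAS1 0.41 (SE 0.26, adjusted p = 0.591), and for both the TRPM7 shRNA arrays stood above the control arrays without overlap. IFI6 had a log2 fold change of -0.20 (SE 0.08, adjusted p = 0.294). The median over the 10 members, undetected IFI27 included, was 0.27 and that over all genes 0.01. Over the 9 members detected on at least 2 arrays it was 0.12, against 0.02 over all genes so detected. Without SH-EP2 control replicate 1, or without either TRPM7 shRNA array, IFI44L no longer passed (adjusted p = 0.121 without the control array, 0.145 without TRPM7 shRNA replicate 1 and 0.0719 without replicate 2), while IFI44 did. With eBayes run without an intensity trend neither passed (adjusted p = 0.130 for IFI44L and 0.117 for IFI44).

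In SH-SY5Y cells the same pair moved apart in the main fit, and both calls depended on the processing. IFI44L was undetected on both control arrays, with a detection p of 0.149 and 0.418, and detected on both TRPM7 shRNA arrays, with 0.00519 and 0.0013. Its log2 signal was 2.56 and 2.17 in control and 3.83 and 4.13 in TRPM7 shRNA cells, and the groups did not overlap. The rise was at least 1.77-fold (adjusted p = 0.000332). IFI44 was detected on all 4 arrays, at 5.93 and 5.73 in control and at 5.17 and 5.27 in TRPM7 shRNA cells. It fell 1.52-fold (log2 -0.61, SE 0.15, adjusted p = 0.0425), close to the threshold, and in the deposited signals the groups overlapped (178 and 146 against 155 and 163). In SH-SY5Y 2.57% of all genes passed, 0.999% higher and 1.57% lower, beside 1 member higher and 1 lower.

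Of the other members in SH-SY5Y, IFIT2, IFIT3, MX1 and IFI27 were undetected in both groups. IFIT1 stood at 4.16 and 5.28 in control and at 5.20 and 5.47 in TRPM7 shRNA cells, with overlapping groups (log2 0.62, SE 0.26, adjusted p = 0.338). ISG15 stood at 3.92 and 4.24 in control and at 3.47 and 3.46 in TRPM7 shRNA cells, with no overlap (log2 -0.61, SE 0.18, adjusted p = 0.0906). OAS1 had a log2 fold change of -0.39 (SE 0.26, adjusted p = 0.650) and IFI6 of -0.21 (SE 0.08, adjusted p = 0.319). None of these 4 passed, but ISG15 did without SH-SY5Y control replicate 1 (adjusted p = 0.0409) and IFIT1 without control replicate 2 (adjusted p = 0.00653). The 2 calls in SH-SY5Y depended on the processing: with normexp (offset 50), with no background correction and with SH-SY5Y normalized and fitted alone neither IFI44L (log2 0.21 without background correction, adjusted p = 0.0743, 0.200 and 0.145) nor IFI44 (adjusted p = 0.228, 0.317 and 0.383) passed, and IFI44 passed in 4 of 18 alternative settings against 14 of 18 for IFI44L. The block on the replicate number and median scaling also ended the IFI44 call (adjusted p = 0.0913 and 0.349), as did leaving out any single array except SH-SY5Y control replicate 2 (adjusted p from 0.048 to 0.184 over the 8 arrays).

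**Figure D2:**
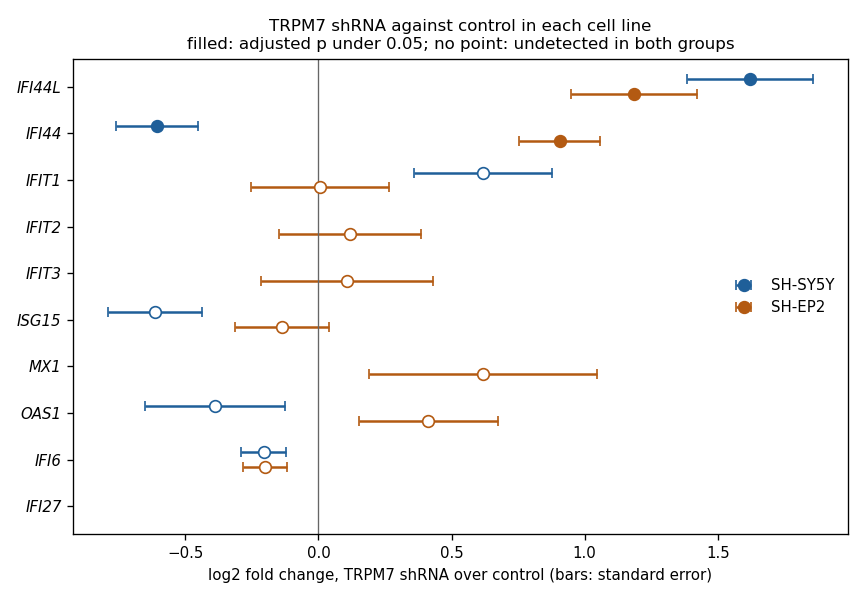
Log2 fold change of TRPM7 shRNA over control (horizontal axis; bars are standard errors of the limma fit) for each interferon-stimulated gene in SH-SY5Y (blue) and SH-EP2 (orange); filled points passed an adjusted p of 0.05, and genes undetected in both groups of a line have no point. IFI44L lies above 0 in both lines, IFI44 lies above 0 in SH-EP2 and below 0 in SH-SY5Y, and the remaining points are open; the SH-SY5Y value of IFI44L is fitted from undetected control arrays.

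The effect of the TRPM7 shRNA on IFI44 differed between the lines. The log2 effect in SH-EP2 was 1.51 higher than in SH-SY5Y (SE 0.22, adjusted p = 0.000418 for the interaction), and this was the 1 member called, where 1.78% of all genes passed and 0.993% were higher in SH-EP2. The interaction of IFI44 passed in 16 of 17 alternative settings and failed without the intensity trend (adjusted p = 0.131). For IFI44L the difference between the lines has no settled direction, since it was fitted at -0.43 (SE 0.33, adjusted p = 0.728) and became 0.61 with normexp (adjusted p = 0.0145) and 0.62 without background correction (adjusted p = 0.000864). The remaining members did not pass (OAS1 0.80, SE 0.37, adjusted p = 0.464).

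Among the interferons themselves almost nothing was detected. Of 21 interferon ligand genes on the array, 2 were detected on any array and none was called with the TRPM7 shRNA in either line. IFNB1, the first type I interferon made by most cells after sensing of nucleic acid, was detected on no array, with log2 signals between 1.35 and 2.20. IFNE, an interferon of epithelia that is expressed without infection, was detected on the 4 SH-EP2 arrays, at 3.99 and 4.41 in control and 4.86 and 5.01 in TRPM7 shRNA cells (log2 0.73, SE 0.45, adjusted p = 0.569), and on no SH-SY5Y array. IFNA21 was detected on 1 SH-EP2 TRPM7 shRNA array. The array measures RNA in the cells and not secreted protein.

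All 9 receptor and kinase genes were detected in SH-SY5Y and 8 of them in SH-EP2. In SH-EP2 control cells 6 were higher than in SH-SY5Y control cells and 1 lower, where 14.2% of all genes were higher and 15.9% lower. IL10RB, a chain of the type III receptor, was 3.79-fold higher and IFNAR1, a chain of the type I receptor, 3.34-fold higher (log2 1.74, SE 0.15), whereas IFNLR1, the other type III chain, was undetected on the SH-EP2 control arrays and was lower by at least 1.91-fold. With no background correction the log2 difference was 1.73 for IL10RB, 0.91 for IFNAR1 and -0.29 for IFNLR1. The IFNLR1 call was lost without SH-SY5Y control replicate 1 (adjusted p = 0.136) and with the mean over its probes (adjusted p = 0.150). With the TRPM7 shRNA, 1 receptor gene passed: IFNGR2, a chain of the interferon gamma receptor, fell 1.25-fold in SH-SY5Y (10.63 and 10.68 against 10.30 and 10.36, adjusted p = 0.0343). It passed in 8 of 18 alternative settings and not without any one SH-SY5Y array or either SH-EP2 TRPM7 shRNA array (adjusted p from 0.0653 to 0.174).

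STAT2 and IRF9, parts of the transcription complex, were detected on all arrays and were higher in SH-EP2 control cells. STAT2 stood at 9.83 and 9.90 against 9.23 and 9.23 (1.55-fold, adjusted p = 4.47e-05). IRF9 stood at 9.43 and 9.46 against 8.29 and 8.34 (2.19-fold, adjusted p = 4.58e-08). IRF1, a factor that also acts on interferon-stimulated genes, was 12.1-fold higher (9.94 and 9.70 against 6.25 and 6.19), and IRF7, which amplifies interferon alpha genes, was 2.47-fold lower. Of the 8 factors listed, 5 were higher in SH-EP2 and 1 lower, where 14.2% of all genes were higher and 15.9% lower. With no background correction the log2 difference was 2.44 for IRF1, 0.91 for IRF9, 0.55 for STAT2 and -0.64 for IRF7. With the TRPM7 shRNA, STAT2 and IRF9 did not pass in either line, with log2 fold changes between -0.14 and -0.06. IRF1 was the 1 factor that passed, higher in SH-EP2 at 10.28 and 10.35 against 9.94 and 9.70 (1.41-fold, SE 0.13 on the log2 scale, adjusted p = 0.045), and it passed in 9 of 17 alternative settings and in none that left out an SH-EP2 array (adjusted p from 0.0882 to 0.426).

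Of 18 sensors and adaptors, 12 were higher in SH-EP2 control cells and none was lower (list median 1.28). Of all genes 14.2% were higher and 15.9% lower, and of the genes detected on at least 2 arrays 25.3% were higher. IFI16, a sensor of DNA, was 95.1-fold higher as fitted, at 9.77 and 9.87 against 3.15 and 3.34. The SH-SY5Y control values lay close to the lowest detected signals of those arrays (3.08 and 3.24). STING1, the adaptor of DNA sensing, and IKBKE, a kinase that activates IRF3, were also higher, with fitted log2 differences of 6.36 and 3.93, and since each was detected on 1 of the 2 SH-SY5Y control arrays no exact fold is given. Without background correction the log2 difference was 3.07 for IFI16, 2.59 for STING1 and 0.95 for IKBKE. IFIH1, which encodes MDA5, stood at 6.40 and 6.10 in SH-EP2 control cells and was undetected in SH-SY5Y (at least 8.52-fold). RIGI, listed on the array as DDX58, was 2.43-fold higher (log2 1.28, SE 0.33, adjusted p = 0.00556). With no background correction the log2 difference was 0.76 for IFIH1 and 0.22 for RIGI, so that the bound and the fold depend on that correction. None of the 18 sensors and adaptors passed with the TRPM7 shRNA in either line, but in SH-EP2 that count depended on the processing: 4 were higher and 1 lower with normexp, with no background correction and with the line normalized and fitted alone, and 1 was higher and 1 lower with neqc. The share of all genes that passed in these settings is not given here, so these counts cannot be set beside it. In SH-EP2 the log2 fold change was 0.66 for IFIH1 (6.40 and 6.10 against 6.96 and 6.86, adjusted p = 0.470) and 0.12 for RIGI (adjusted p = 0.944). Of 6 negative regulators, 4 were higher in SH-EP2 control cells, beside 14.2% of all genes. They were led by SOCS1, a feedback inhibitor of JAK kinases, at least 13.8-fold, SOCS3 (2.66-fold) and USP18 (2.17-fold). None of the 6 passed with the TRPM7 shRNA. With no background correction the log2 difference was 1.05 for SOCS1, 0.21 for SOCS3 and 0.18 for USP18. USP18 passed in 7 of 16 alternative settings. The call of SOCS3 was lost without SH-EP2 control replicate 1 (adjusted p = 0.176), and that of RIGI without SH-SY5Y control replicate 2 (adjusted p = 0.0651) and with the replicate block (adjusted p = 0.0574).

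**Figure D3:**
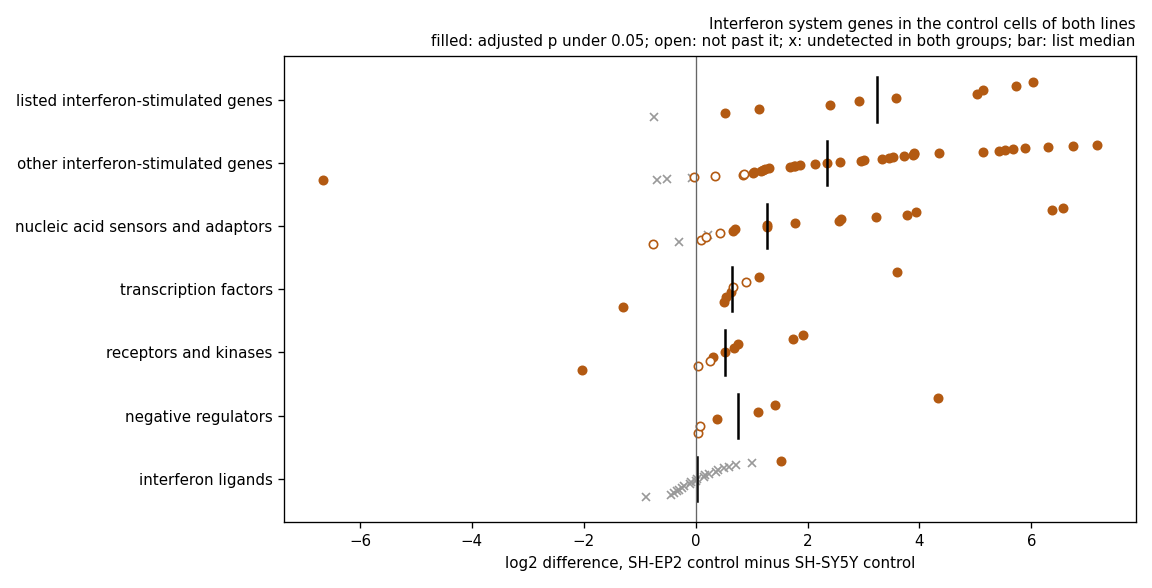
Log2 difference of SH-EP2 control minus SH-SY5Y control (horizontal axis) for the listed interferon-stimulated genes and 6 lists of genes of the interferon system; each point is a gene by its brightest probe, filled where the adjusted p was under 0.05, crosses were undetected in both groups, and bars are list medians. The members (median 3.24) and the other interferon-stimulated genes (median 2.35) lie mostly to the right of 0, HERC5 lies far to the left, and the interferon ligands are crosses but for IFNE; values of genes undetected in a line are fitted and not bounds.

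The higher level in SH-EP2 extended to 31 of 39 other interferon-stimulated genes, with 1 lower and a median log2 difference of 2.35. Of all genes 14.2% were higher and 15.9% lower, and of the genes detected on at least 2 arrays 25.3% were higher. GBP1, a GTPase of the guanylate-binding family, was at least 88.8-fold higher and IFITM3, a membrane protein that blocks viral entry, 108-fold higher (13.27 and 13.35 against 6.48 and 6.64). HERC5, the ligase that attaches ISG15 to proteins, went the other way and was lower in SH-EP2 control cells, at 2.36 and 3.22 against 9.50 and 9.40. It was detected on 1 of the 2 SH-EP2 control arrays, so that the fitted log2 difference of -6.66 is given with no exact fold, and it was -2.81 without background correction. For GBP1 and IFITM3 the log2 difference without that correction was 3.01 and 5.63. Over the 16 alternative settings the number of the 39 genes that were higher stayed between 30 and 31.

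With the TRPM7 shRNA, 6 of the 39 were lower and none higher in SH-SY5Y, where 1.57% of all genes were lower and 0.999% higher. In SH-EP2 1 of the 39 was higher and none lower, where 1.82% of all genes were higher and 1.85% lower. That count became 4 higher and 0 lower with normexp, 2 higher and 3 lower without background correction, 3 higher and 4 lower with the line normalized and fitted alone, and 0 without the intensity trend. The shares of all genes given here are those of the main fit and not of these settings. The 6 in SH-SY5Y were IFITM2, IFITM3, SAMD9L, PARP9, ISG20 and UBE2L6. IFITM3 stood at 6.48 and 6.64 in control and at 5.70 and 5.35 in TRPM7 shRNA cells, a 2.05-fold fall (log2 -1.03, SE 0.11, adjusted p = 9.03e-06). IFITM2, its close relative in sequence, fell 1.77-fold from 9.74 and 9.85 to 9.08 and 8.87 (adjusted p = 4.29e-06), and since probes of related transcripts can share signal the 2 may not be independent. SAMD9L, a factor that restricts cell growth and viruses, stood at 4.40 and 4.36 and was undetected on both TRPM7 shRNA arrays, a fall of at least 2.56-fold (adjusted p = 7.49e-05). Without background correction the log2 fold change was -0.38 for IFITM3 and -0.23 for SAMD9L, and SAMD9L did not pass (adjusted p = 0.0958). ISG20, an exonuclease, fell 1.92-fold (adjusted p = 0.0117), PARP9 1.70-fold (adjusted p = 0.0191) and UBE2L6, the conjugating enzyme for ISG15, 1.31-fold (adjusted p = 0.00975). These 3 genes passed in 11, 8 and 12 of 18 alternative settings, in which their smallest log2 changes were -0.20, -0.19 and -0.24. The number of the 39 that were lower in SH-SY5Y ranged from 1 to 9 over 18 alternative settings, with 1 where eBayes had no intensity trend. With 1 array left out it was 4 to 6, and the lost calls were those of ISG20 and PARP9 without SH-SY5Y control replicate 2 (adjusted p = 0.155 and 0.189), ISG20, PARP9 and UBE2L6 without TRPM7 shRNA replicate 1 (adjusted p = 0.0639, 0.104 and 0.113), ISG20 and PARP9 without TRPM7 shRNA replicate 2 (adjusted p = 0.0514 and 0.0541) and UBE2L6 without control replicate 1 (adjusted p = 0.0582). In the last case and without TRPM7 shRNA replicate 1, further genes of the list passed, in both directions.

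HERC5 was the other interferon-stimulated gene that passed in SH-EP2, at 2.36 and 3.22 in control and 4.78 and 4.05 in TRPM7 shRNA cells, a rise of 1.63 on the log2 scale as fitted (SE 0.25, adjusted p = 0.000536), with 1 control array undetected. The HERC5 call held in 14 of 17 alternative settings, with a log2 change of 0.75 with neqc and 0.34 with normexp, and was lost without background correction (log2 0.22, adjusted p = 0.153), without the intensity trend (adjusted p = 0.180) and with the line fitted alone (adjusted p = 0.0609). The interaction passed for 6 of the 39: IFITM2, IFITM3, SAMD9L, ISG20, UBE2L6 and HERC5. In all 6 the log2 effect in SH-EP2 was above that in SH-SY5Y, and 0.993% of all genes passed in this direction. All but HERC5 were called lower in SH-SY5Y and were not called in SH-EP2. Beside these falls in SH-SY5Y, the summed signal of the 8 noradrenergic markers was 11790 to 12300 on TRPM7 shRNA arrays, below the 16009 to 17527 of the control arrays. That of the 8 mesenchymal markers was 11379 to 11742 against 13529 to 14818, and 1 noradrenergic gene (DBH) and 2 mesenchymal genes (SNAI2 and VIM) were lower. In SH-EP2 the noradrenergic sum was 161 to 200 against 188 to 204 and the mesenchymal sum 27952 to 28524 against 28474 to 29225, with 2 noradrenergic genes lower, 1 mesenchymal gene higher and 3 lower. Their part in the changes of interferon-stimulated genes was not tested.

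**Figure D4:**
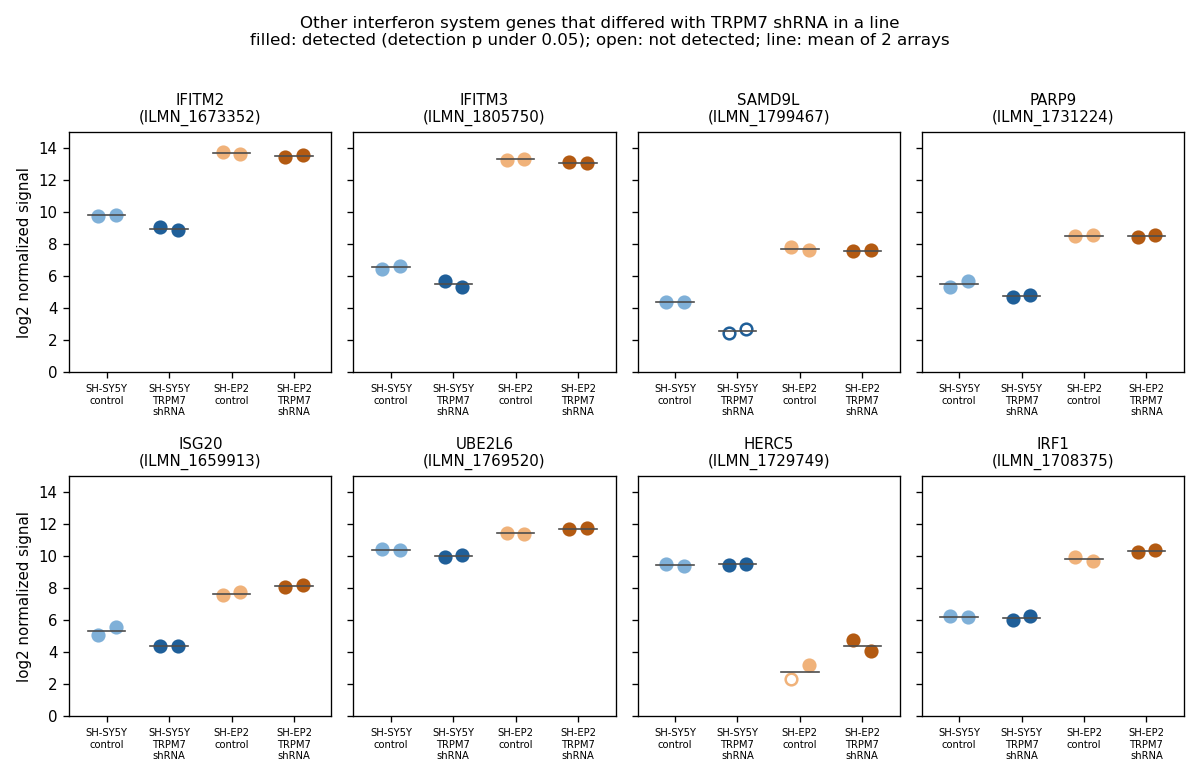
Log2 normalized signal (vertical axis) of 8 other genes of the interferon system that passed with the TRPM7 shRNA in 1 of the lines, on the 8 arrays by group; filled points are detected arrays, open points undetected ones, and lines are group means of 2 arrays. IFITM2, IFITM3, SAMD9L, PARP9, ISG20 and UBE2L6 step down in SH-SY5Y, HERC5 and IRF1 step up in SH-EP2, and HERC5 is the 1 gene of the 8 that is brighter in SH-SY5Y.

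An effect of the shRNA vector itself on these genes cannot be told apart from the resting level of each line, because the control cells carry the vector and a nonfunctional shRNA and cells without a virus were not arrayed. The comparison of TRPM7 shRNA with control holds the vector equal but not the shRNA sequence, so that an effect of the sequence and an effect of less TRPM7 cannot be told apart either. What was measured is that the same kind of vector went with 9 detected members in SH-EP2 control cells and 5 in SH-SY5Y control cells. IFNB1 was detected in neither. With the TRPM7 shRNA 2 of the 10 members were higher in SH-EP2, where 3.67% of all genes passed. In SH-SY5Y 1 was higher and 1 lower, where 2.57% of all genes passed. None of these calls held in every alternative setting.

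Among genes outside the lists, the brightest probes most like the mean of the 9 detected members over the 8 arrays were those of GAGE12C (Pearson r = 0.9998), ALDH1A1 (0.9996), GAGE2E (0.9996), BAG3 (0.9994) and VCAM1 (0.9994), out of 14989 genes detected on at least 4 arrays. The arrays form 2 clusters, 1 for each line, so these values describe genes with a higher signal in SH-EP2 than in SH-SY5Y and, within SH-EP2, a higher mean with the TRPM7 shRNA. GAGE12C, GAGE2E and VCAM1 were undetected on all 4 SH-SY5Y arrays and ALDH1A1 was detected on 1 of them, so that for these genes the likeness rests in part on signals at background. VCAM1, an adhesion molecule, stood at 10.93 in SH-EP2 control and 11.46 in SH-EP2 TRPM7 shRNA cells. ALDH1A1, an enzyme of retinoic acid synthesis, stood at 8.87 and 9.32 in the same groups. BAG3, a co-chaperone of heat shock proteins, was detected on all 8 arrays, at 10.41 and 10.67 in these groups and at 7.22 and 7.35 in SH-SY5Y control and TRPM7 shRNA cells.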

How the data were processed

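Total RNA of 8 samples, grouped by the cell line and shRNA in their titles, was hybridized to Illumina HumanHT-12 v4 arrays. The authors extracted bead signals with GenomeStudio 2011.1, and the deposited table holds the intensity of 47322 probes, not normalized between arrays, with a detection p-value for each per the file headers. Median signals were 105 to 120, and 2 arrays per group limit the precision.

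Intensities were background corrected (RMA model), quantile normalized on the linear scale and taken to log2. A gene was represented by its probe with the highest mean. Groups were compared with limma 3.58.1 (statmod 1.5.0, R 4.3.3; 4 group means, eBayes with an intensity trend). Tests had 2 sides and p-values were adjusted by Benjamini-Hochberg across all probes (threshold 0.05). The procedure was checked on simulated arrays.

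The members and the lists (101 genes in 6 lists of the interferon system, and markers) were chosen with earlier results of these data known. Named are all members, TRPM7, IFNB1, STAT2, IRF9, RIGI and IFIH1, the 3 genes of each list and comparison with the largest change among those past the threshold, the detected ligands, and the 5 genes most like the members. PARP9 and UBE2L6, with ISG20 in SH-SY5Y, were named after their values were seen. Some listed genes enter the counts and are not reported singly here. Alternatives were other background corrections, median scaling, a detection filter, no intensity trend, each line alone, a replicate block, the mean over probes and leaving out each array.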

Additional observations from a re-analysis of the deposited data

Results flagged for a closer look

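The effect of the TRPM7 shRNA differed between SH-EP2 and SH-SY5Y by the interaction term of the fit for 7 genes of the interferon system. They came from the 10 members and the 101 listed genes, and in all the log2 effect in SH-EP2 was above that in SH-SY5Y. Such a difference can come from a fall in SH-SY5Y as well as from a rise in SH-EP2. IFITM2, IFITM3, SAMD9L, ISG20 and UBE2L6 were called lower in SH-SY5Y (log2 -0.82, -1.03, -1.77, -0.94 and -0.39) and were not called in SH-EP2. HERC5 was called higher in SH-EP2 only. IFI44 was called higher in SH-EP2 and lower in SH-SY5Y. Of all genes 1.78% passed by the interaction, 0.993% with the effect in SH-EP2 above that in SH-SY5Y. Among the 10 members IFI44 passed, at 1.51 on the log2 scale (SE 0.22, adjusted p = 0.000418). Among the other interferon-stimulated genes the difference was 1.66 for SAMD9L, 1.59 for HERC5, 1.41 for ISG20, 0.82 for IFITM3, 0.68 for UBE2L6 and 0.67 for IFITM2, with adjusted p-values from 0.00221 to 0.0252. HERC5 passed in 4 of 17 alternative settings, SAMD9L in 10, IFITM3 in 12, ISG20 in 13, UBE2L6 in 14 and IFITM2 in 16. With 1 array left out, 2 to 6 of the 39 other interferon-stimulated genes passed, 2 without SH-EP2 TRPM7 shRNA replicate 1 and 3 without SH-EP2 control replicate 1. SAMD9L was undetected on both SH-SY5Y TRPM7 shRNA arrays, so its value is fitted and not measured on both sides. No cause was tested for any of them. Groups of 2 arrays were too small for a check of single arrays that stand apart.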

How the results depend on the processing

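The difference between the lines kept its calls but not its sizes, which were smaller without background correction: 9 members were higher in SH-EP2 control cells in 15 of 16 alternative settings, and 8 without the intensity trend, where IFI6 was lost. In SH-EP2 the number of members called with the TRPM7 shRNA was 2, fell to 0 without the intensity trend and was 1 to 2 with 1 array left out. In SH-SY5Y it was 2, became 1 with neqc, with median scaling and with the replicate block, and 0 with normexp, with no background correction, without the trend and with the line fitted alone, and was 1 to 3 with 1 array left out. IFIT1 was added in SH-SY5Y and in the difference between the lines without SH-SY5Y control replicate 2 (adjusted p = 0.00653 and 0.0448). For the difference between the lines the count was 1, became 2 with normexp and without background correction, where IFI44L was added, and 0 without the trend, and was 1 to 2 with 1 array left out. In that difference IFI44L turned from -0.43 to 0.40 with neqc, 0.61 with normexp and 0.62 without background correction. ISG15 turned from 0.47 to -0.0052 with normexp and -0.042 without background correction, IFI6 from 0.01 to -0.10 with median scaling and -0.11 with the mean over probes, and IFIT1 from -0.61 to 0.070 with the mean over probes. The mean for IFIT1 includes its other probe, which was detected on no array. With 1 array left out, the change of IFIT1 in SH-EP2 lay between -0.17 and 0.19, that of ISG15 in SH-EP2 between -0.29 and 0.018, and the IFI6 difference between -0.075 and 0.092. None of these reversed values passed but the normexp and uncorrected values of IFI44L. The cause of these changes was not tested.

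Same-numbered replicates did not deviate together (r = -0.11 in SH-SY5Y and -0.0045 in SH-EP2 over 14577 probes), so the numbers were not taken as pairs. The replicate block changed no other count of members. A crossed pairing in SH-SY5Y, added after the data were seen, gave 2 members in SH-SY5Y and 1 in the difference between the lines. Median scaling moved the median of all probes in SH-SY5Y from 0.00 to 0.09 and that of the difference between the lines from 0.01 to -0.10. In SH-SY5Y, 4 of the 10 members were undetected on all arrays.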
